A study of Mus musculus with 12 samples.

Results

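Bone marrow-derived dendritic cells (BM-DCs) treated with lipopolysaccharide alone were compared with untreated BM-DCs at the level of RNA. The comparison rests on 6 of the 12 libraries of the series, 3 of untreated cells (Ctrl) and 3 of cells given LPS at 100 ng/ml for 18 h (LPS), taken by their labels. All libraries came from wild type C57BL/6 mice in post-natal week 12, whose marrow from femur, tibia and hip was grown for 9 days with GM-CSF, so every group shares that cytokine. The other 6 libraries are cells with Aβ1-42 oligomers at 0.5 µM for 4 days (Aβ) and cells with both agents (Aβ+LPS). They are used to ask whether the effect of LPS was the same in the presence of Aβ. Their spread also enters the standard errors and p-values of LPS vs. Ctrl, as the same fit covered all 12 libraries. The 18 h are the length of LPS treatment and not a stated time of harvest. The paper starts Aβ a day before LPS and gives 4 days of it, so harvest may have come later than 18 h. The labels do not say whether the 3 libraries of a group came from separate cultures or animals. The p-values therefore measure the spread between libraries within groups, over all 12 libraries, which may be technical. Of 53465 genes listed, the 13721 whose mean reached 10 normalized counts in Ctrl or LPS were tested. Just inside that limit stood Ntn4, with a mean of 10.04 in Ctrl and 4.23 in LPS, and just outside it AI464131, with 9.97 and 6.54.

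LPS is the outer membrane glycolipid of Gram-negative bacteria. It is handed by CD14 to the receptor TLR4 with its partner MD-2, which signals through the adaptor MyD88 to NF-κB and MAP kinases and through the adaptor TRIF to IRF3 and type I interferon. Dendritic cells that sense it stop sampling antigen, raise costimulatory ligands and the lymph node homing receptor CCR7, and secrete cytokines. Cultures of bone marrow in GM-CSF are known to hold macrophage-like cells beside dendritic cells.

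Reads counted in genes ranged from 24129681 to 27209584 in Ctrl and from 25557721 to 26522548 in LPS, so depth did not set the groups apart. Replicates correlated with Pearson's r of 0.9906 to 0.9938 across tested genes. The chi-square of their counts per gene was 13 between LPS replicates 2 and 3 and 4.72 to 7.17 between the other pairs. The label was checked against defining markers. Itgax, which encodes CD11c, had 31132, 31468 and 30973 normalized counts in the Ctrl libraries and 34099, 32935 and 33910.1 in the LPS libraries, and the class II chain gene H2-Ab1 had 17518, 17520.5 and 18017 and 17171, 18364 and 16494, so both were strongly expressed throughout. The members of the conventional dendritic cell list ranged widely. Flt3 had 1.01, 9.15 and 5.11 in Ctrl, Dpp4 38.5, 25.2 and 31.7 and Zbtb46 100.3, 108 and 110.5, whereas Sirpa had 39530.4, 40679.5 and 39096 and Id2 7591, 8179 and 7693. The 22 genes of that list summed to 3340 to 3440 CPM (reads scaled to the library total) in the Ctrl libraries. The macrophage genes Csf1r, with 24852, 27263 and 25213, and Adgre1, with 21540.3, 21696 and 21928, were expressed in every Ctrl library, so RNA of macrophage-like and dendritic cells cannot be told apart. The cultures are called BM-DCs as the labels do, and in these bulk libraries fewer cells of a type and less RNA per cell cannot be told apart.

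LPS moved a large share of the transcriptome, mostly by small amounts. By limma on log2(normalized count + 1) with Benjamini-Hochberg adjustment over all tested genes (adjp under 0.05), 3266 genes (23.8% of those tested) were higher in LPS and 3235 (23.6%) were lower. The median change was 0.49 on the log2 scale among the higher genes and -0.36 among the lower ones, beside a median standard error of 0.083 over all tested genes. Large changes were lopsided towards gain. A change of more than 1 on the log2 scale, that is more than 2-fold, was called upwards for 848 genes (6.18%) and downwards for 303 (2.21%). Beyond 3 on that scale lay 93 genes upwards and 15 downwards. Of the tested genes, 551 had a mean under 10 in Ctrl and 282 in LPS, so more passed the filter through LPS alone. With a mean of at least 50, 455 genes were higher and 206 lower by more than 2-fold. The Ctrl and LPS libraries did not overlap for 3071 of the higher and 3066 of the lower genes, and for 53.9% of all tested genes. Long intergenic non-coding RNAs had 106 of 332 members higher and 31 lower, whereas processed pseudogenes, whose reads can be shared with their parent genes, had 17 of 333 higher and 51 lower. Counts of called members in a list are to be set beside the shares of all tested genes, of which 47.4% were called either way. In what follows, pairs in parentheses are group means ± SD of normalized counts in Ctrl and then LPS with n = 3 each. A single value in parentheses after a gene is its log2(fc), LPS vs. Ctrl, on the scale of log2(normalized count + 1), which understates the change of genes with few counts.

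The chemokine gene Ccl5 showed the largest rise among the genes selected for a mean reaching 100 in the higher group and no overlap of libraries. Its normalized counts were 106, 105 and 119 in Ctrl and 35342, 37518 and 38617 in LPS (log2(fc) = 8.39 ± 0.05, adjp = 3.6e-30), a 338-fold ratio of means at chromosome 11, 83525778 to 83530518 of GRCm38 on the minus strand. Every LPS library exceeded every Ctrl library by more than 2 orders of magnitude. Lcn2, encoding the siderophore-binding lipocalin-2, had 22.3, 8.01 and 41.9 in Ctrl and 2813, 2644 and 2780.5 in LPS (log2(fc) = 7.04 ± 0.29, adjp = 9e-15). The Ctrl libraries differed from each other at these few counts, and the LPS libraries did not overlap with them. Saa3, an acute-phase serum amyloid A gene, had 87.2, 84.6 and 105 against 6499.7, 7639.9 and 6887 (log2(fc) = 6.23 ± 0.07, adjp = 2.4e-24). The cytokine gene Il6 had 5.07, 3.43 and 3.07 against 234, 215 and 223 (log2(fc) = 5.56 ± 0.1, adjp = 5.6e-21). No Ctrl library had more than 5.07 normalized counts of Il6, and all LPS libraries were far above. Nos2, the inducible nitric oxide synthase gene, had 13.2, 18.3 and 10.2 against 436, 396 and 473 (log2(fc) = 4.9 ± 0.12, adjp = 5.7e-19). Serpinb2, a plasminogen activator inhibitor gene, had 284, 232 and 328 against 8136, 8033 and 7519 (log2(fc) = 4.82 ± 0.08, adjp = 2.8e-22). Together these genes cover a chemokine, a cytokine, secreted defence proteins, an enzyme and a protease inhibitor.

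The other members of the 15 largest rises were Vnn3 (5.38), of the vanin family of pantetheinases, Susd2 (4.99), Cp (4.74), the ferroxidase ceruloplasmin, Il12b (4.44), the p40 subunit of IL-12 and IL-23, Cxcl3 (4.42), Pappa2 (4.33), a metalloproteinase of IGF-binding proteins, Sema7a (4.18), a membrane semaphorin, H2-Q7 (4.18) and Il1b (4.18). Each rose with an adjp of at most 3.9e-13. H2-Q7 and its near-identical neighbour H2-Q6 (121 ± 38.1 to 2118 ± 143, log2(fc) = 4.16) may share reads, so their separate values are uncertain.

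**Figure D1:**
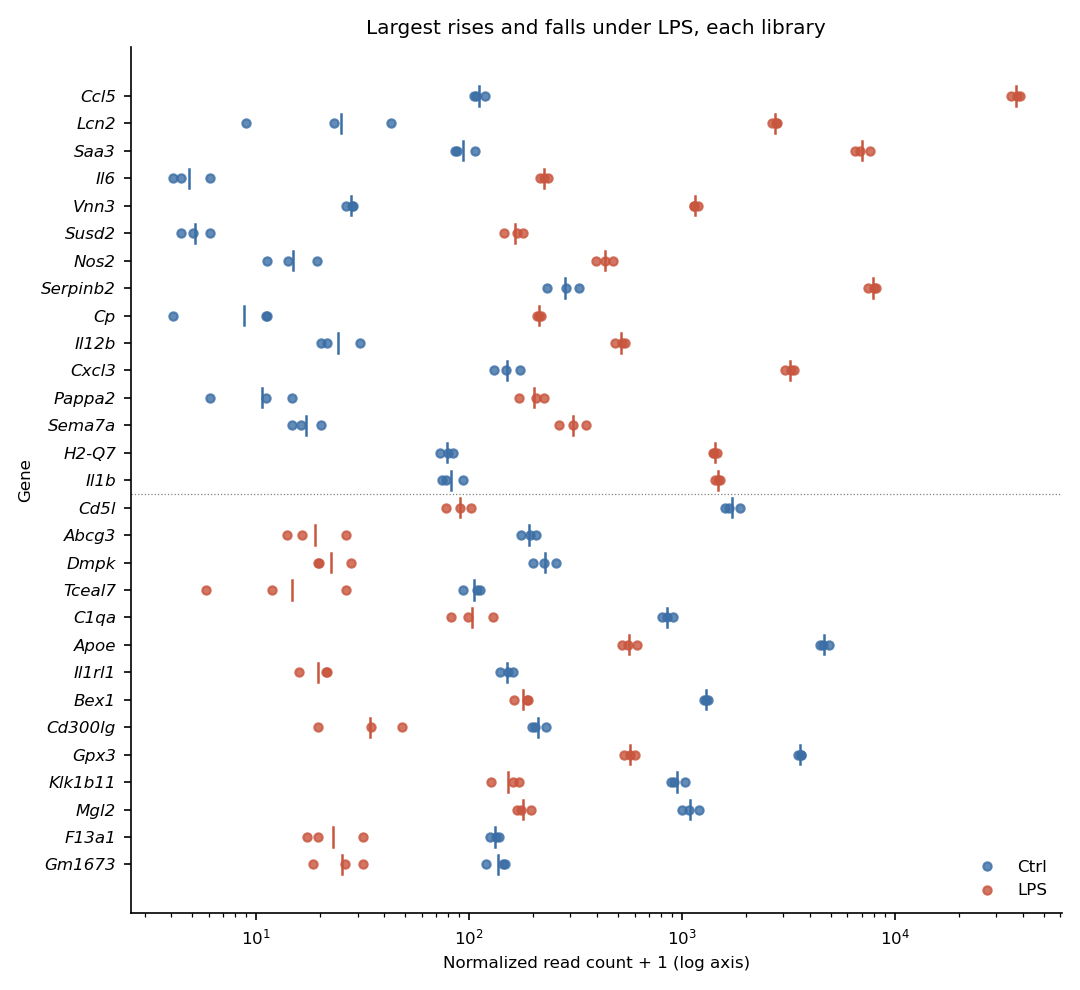
Normalized read counts plus 1 on a log axis for the 15 genes with the largest rise (above the dotted line) and 14 of the 15 with the largest fall under LPS; points are single libraries (Ctrl blue, LPS red; n = 3 each) and vertical bars are group means. For each of the 29 genes the blue and red points do not overlap, with Ccl5 spanning 105 to 38617 normalized counts and Cd5l spanning 77.2 to 1884.

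Genes of the LPS receptor and its adaptors moved both ways. Of 22 genes of the receptor complex tested, 7 were higher and 7 lower, with a median log2(fc) of 0.023, against 23.8% and 23.6% of all tested genes and a median of -0.003. The list's median ranged from 0.008 to 0.039 without 1 library. The co-receptor gene Cd14 rose, from 4679, 5298 and 4948 in Ctrl to 11395, 11220.1 and 11742 in LPS (log2(fc) = 1.2 ± 0.05, adjp = 4e-15). Tlr4 itself fell (3716 ± 147 to 2936 ± 164, log2(fc) = -0.34), as did Lbp (56.4 ± 9.25 to 20.5 ± 4.24, log2(fc) = -1.42), the LPS-binding protein gene, and the MD-1 gene Ly86 (549 ± 47 to 264 ± 19, log2(fc) = -1.05). MD-2, encoded by Ly96 (494 ± 33.3 to 566 ± 26.4, log2(fc) = 0.2), rose by a small amount. Among the kinases, Irak3 (1.11), known as IRAK-M and a brake on the pathway, rose more than Irak2 (0.7), while Irak1 (-0.12) fell and Irak4 (0.03) was not called. The adaptor genes Myd88 (0.17) and Ticam2 (0.46) rose, and Ticam1 (0.06) and Tirap (-0.1) were not called. Traf6 rose (0.36), Map3k7 (-0.2) and Tab2 (-0.14) fell, and Cd180 (-0.23), a TLR4-like receptor, was lower. Tollip (-0.04), Tbk1 (0.04), Ikbke (0.02), Map3k8 (-0.04) and Peli1 (0.12) were not called.

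Other sensors were higher more often than lower, with 12 higher and 2 lower of 25 tested (median log2(fc) = 0.20). Called either way were 56% of them, against 47.4% of all tested genes. That median was 0.088 without Ctrl replicate 2, 0.31 without Ctrl replicate 3 and 0.128 without LPS replicate 3. The formyl peptide receptor genes Fpr1 (144 ± 17 to 1473 ± 64.8, log2(fc) = 3.35) and Fpr2 (113 ± 11.2 to 886 ± 5.43, log2(fc) = 2.96) and the lectin gene Clec4e (1112 ± 29.4 to 6642 ± 228, log2(fc) = 2.58), which encodes Mincle, moved most. Tlr2 (1390.1 ± 89.9 to 2569.6 ± 113, log2(fc) = 0.89) and Nod2 (120.4 ± 8.32 to 200.1 ± 4.3, log2(fc) = 0.73) also rose. Tlr8 (5488 ± 281 to 4088 ± 278, log2(fc) = -0.43) and Unc93b1 (9465 ± 376 to 8316 ± 192, log2(fc) = -0.19), a chaperone of endosomal Toll-like receptors, were the members that fell. Among inflammasome genes and caspases, 13 were higher and 5 lower of 21. Nlrp3 (0.52), Casp4 (0.84) and the pyrin gene Mefv (1.38) rose, and the adaptor gene Pycard (-0.37) and the cytokine gene Il18 (-0.78) fell. Il1a (652 ± 89.3 to 3410.0 ± 80.2, log2(fc) = 2.39) rose less than Il1b on the log2 scale, a difference that was not tested.

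Most of the NF-κB group rose, subunits and inhibitors alike. Of 33 genes tested, 24 were higher and 3 lower (median log2(fc) = 0.42). Its strongest member was Traf1, an adaptor of TNF receptors, with 136, 185 and 135 in Ctrl and 990.3, 896 and 994 in LPS (log2(fc) = 2.67 ± 0.09, adjp = 8.4e-17). The deubiquitinase gene Tnfaip3, which encodes the feedback inhibitor A20, had 1865, 1823 and 1876 and 4570.2, 4442 and 4752 (log2(fc) = 1.31 ± 0.04, adjp = 2.9e-17). Neither gene had overlapping libraries. The subunit genes Nfkb1 (0.12), Nfkb2 (0.53), Rel (0.37) and Relb (0.78) rose, whereas Rela (0.15) was not called. Of the IκB family, Nfkbiz (1.73), Nfkbie (0.87), Nfkbib (0.68), Nfkbid (0.26) and Bcl3 (0.79) rose, and Nfkbia (0.11) was not called. Suppressors of cytokine signalling rose, namely Socs1 (1.57), Socs3 (1.52) and Cish (1.12), as did the RNA-degrading regulator gene Zc3h12a (1.06) and the ubiquitin ligase genes Birc2 (0.49) and Birc3 (0.93). Ikbkg (0.32), Tnip1 (0.42), Cyld (0.19), Tnfaip2 (0.62), Traf2 (0.42), N4bp1 (0.33) and Dusp1 (0.38) rose as well. Against the majority, the phosphatase gene Dusp2 (93.3 ± 10.1 to 37.2 ± 6.57, log2(fc) = -1.31), the mRNA decay factor gene Zfp36 (2949 ± 121 to 2354 ± 116, log2(fc) = -0.33) and Tnip3 (3052 ± 63 to 2601 ± 54.1, log2(fc) = -0.23) fell. Ikbkb (-0.09), Chuk (0.12), Tnip2 (0.12) and the stress factor gene Atf3 (0.01) were not called.

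Cytokine genes rose widely. Of 28 tested, 18 were higher and 4 lower, with a median log2(fc) of 1.09. Beside Il6 and Il12b, the activin A gene Inhba gave a rise at high counts, with 2898, 2611 and 2579 in Ctrl and 23169.7, 15759 and 23737 in LPS (log2(fc) = 2.93 ± 0.1, adjp = 1.4e-16). Tnf was detected in Ctrl and rose moderately, from 619, 645 and 627 to 1254, 1225 and 1145 (log2(fc) = 0.94 ± 0.05, adjp = 3.6e-12). The LPS libraries lay above the Ctrl libraries for both genes. Lif (2.36) and Osm (1.17), of the IL-6 family, Vegfa (1.25), Il33 (1.79), Il7 (1.26), Ebi3 (0.82), Edn1 (1.0) and the enzyme gene Il4i1 (1.62) also rose. So did the TNF superfamily genes Tnfsf15 (1.45), Tnfsf18 (1.6), Tnfsf13b (1.32), which encodes BAFF, and Tnfsf4 (0.22). Il12a, the other subunit of IL-12, reached 6.76, 10.9 and 19.5 in the LPS libraries against 0, 0 and 0 in Ctrl, and Vegfc reached 7.72, 10.9 and 11.7 against 0, 0 and 0, both called but at few counts. The members that fell were Il16 (-0.81), Tnfsf8 (-0.58), Tnfsf13 (-0.31) and Csf1 (-0.28). Tgfb1 (-0.01), Il15 (-0.04), Il15ra (0.37), Il27 (0.09), Flt3l (0.63) and Tnfsf10 (-0.21) were not called.

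The chemokine genes split by member. Of 24 tested, 15 were higher and 4 lower (median log2(fc) = 0.82). The neutrophil-attracting genes Cxcl1, Cxcl2 and Cxcl3, which lie close together on chromosome 5, all rose. Cxcl1 had 22.3, 14.9 and 25.6 in Ctrl and 196, 151 and 195 in LPS (log2(fc) = 3.07 ± 0.13, adjp = 1.3e-14). Cxcl2 had 395, 396 and 428 and 2007, 1751 and 1831 (log2(fc) = 2.19 ± 0.05, adjp = 2.5e-19). Cxcl3 had 149, 173 and 129.9 and 3248, 3039 and 3380.1 (log2(fc) = 4.42 ± 0.07, adjp = 4.2e-22). No LPS library of these genes overlapped with a Ctrl library. Their promoter windows from RefSeq (GRCm38.p6, 250 bases before to 50 bases after the annotated start) are shown because each holds a match to the NF-κB site GGANTTTCC, searched on both strands, as does that of Il6. The match, in capitals, begins 70 bases before the start in Cxcl1, 96 in Cxcl2, 72 in Cxcl3 and 43 in Il6.
Cxcl1 (chr5:90890995-90891294, plus strand): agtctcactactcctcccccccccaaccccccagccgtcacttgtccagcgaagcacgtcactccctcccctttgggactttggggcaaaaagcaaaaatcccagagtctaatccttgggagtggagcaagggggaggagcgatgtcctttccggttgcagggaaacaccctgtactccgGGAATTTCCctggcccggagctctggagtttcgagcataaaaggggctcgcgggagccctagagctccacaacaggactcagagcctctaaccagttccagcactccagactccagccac
Cxcl2 (chr5:90903649-90903948, plus strand): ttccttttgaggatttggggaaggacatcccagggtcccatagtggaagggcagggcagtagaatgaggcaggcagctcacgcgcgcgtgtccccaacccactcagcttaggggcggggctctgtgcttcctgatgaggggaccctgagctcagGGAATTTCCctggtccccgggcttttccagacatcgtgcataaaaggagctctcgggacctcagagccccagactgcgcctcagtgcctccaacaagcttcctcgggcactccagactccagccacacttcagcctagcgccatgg
Cxcl3 (chr5:90785851-90786150, plus strand): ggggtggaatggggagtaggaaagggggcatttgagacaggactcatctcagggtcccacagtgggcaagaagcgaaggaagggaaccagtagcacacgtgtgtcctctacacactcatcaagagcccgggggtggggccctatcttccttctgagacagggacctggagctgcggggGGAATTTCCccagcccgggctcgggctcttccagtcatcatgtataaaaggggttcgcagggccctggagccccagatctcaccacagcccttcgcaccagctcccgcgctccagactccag
Il6 (chr5:30012864-30013163, plus strand): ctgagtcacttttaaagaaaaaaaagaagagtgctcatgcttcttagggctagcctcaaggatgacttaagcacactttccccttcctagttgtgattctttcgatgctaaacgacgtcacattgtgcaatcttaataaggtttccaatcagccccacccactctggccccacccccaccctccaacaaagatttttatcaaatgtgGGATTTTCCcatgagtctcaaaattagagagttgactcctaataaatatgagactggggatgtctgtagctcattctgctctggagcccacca
Among the promoter windows of chemokine genes that rose, 4 of 12 (33.3%) held the NF-κB site, as did 5 of 30 (16.7%) of the NF-κB group that rose, against 182 of 13102 windows (1.39%) of all tested genes. The 4 chemokine windows were those of Cxcl10 and of Cxcl1, Cxcl2 and Cxcl3. The last 3 genes are close neighbours whose matches hold the same letters, so their windows may not be independent. Of the 5 windows of the NF-κB group, 2 were overlapping windows of Nfkb2 that hold the same match. The others were those of Tnfaip3, Cyld and Tnfaip2. The share did not follow the direction of change in the cytokine list, where 2 of 19 windows (10.5%) of genes that rose and 2 of 6 (33.3%) of genes that fell held the site. In the NF-κB group it was found in 1 of 5 windows (20%) of genes not called. Among the 15 largest rises and the 15 largest falls, 2 genes of 12 with a window held it in either direction. Over the genes higher by more than 1 on the log2 scale the share was 17 of 772 windows (2.2%), and over those lower by more than 1 it was 2 of 253 (0.791%). The alternative site GGGANNTCC was in 6.48% of windows of those higher genes, against 5.66% of all windows. A match is a run of letters and not a measured site. The uncalled Nfkbia held 2 matches in its window. Windows were found for 10290 of the tested genes, Ccl5 not among them.

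Dendritic cell and macrophage chemokines moved in both directions. Ccl22, which attracts T cells through CCR4, had 1817, 1836 and 1759 in Ctrl and 8088, 8399 and 7678 in LPS (log2(fc) = 2.16 ± 0.04, adjp = 1.7e-20), and its partner Ccl17 rose too (383 ± 41.5 to 652 ± 27.2, log2(fc) = 0.77). Cxcl16 (1.88), Cx3cl1 (1.71), Ccl3 (0.93), Ccl9 (0.61) and Pf4 (0.81) were higher. Cxcl10 (39.9 ± 23.4 to 65.5 ± 7.17, log2(fc) = 0.85), an interferon-induced gene, rose at few counts, as did Cxcl5 (6.82 ± 3 to 31.8 ± 10.4, log2(fc) = 2.08), Ccl8 (1.39 ± 1.54 to 15 ± 5.68, log2(fc) = 2.89) and Cxcl9, listed at 1.01, 0 and 0 in Ctrl and at 8.69, 12.9 and 11.7 in LPS. Cxcl10 lost its call without Ctrl replicate 1 (log2(fc) = 0.515, adjp = 0.097 by limma). Ccl6 fell from 155438, 143011 and 157588 in Ctrl to 74194, 72720.4 and 71031 in LPS (log2(fc) = -1.06 ± 0.05, adjp = 2e-14), without overlap. Ppbp (1007 ± 45.6 to 474 ± 84.6, log2(fc) = -1.1), Ccl12 (60.4 ± 7.01 to 24.1 ± 4.96, log2(fc) = -1.3) and Ccl7 (1006 ± 156 to 745 ± 114, log2(fc) = -0.43) fell as well. Ccl2 (-0.16), Ccl4 (0.05), Ccl24 (0.4), Ccl25 (-0.18) and Cxcl14 (0.05) were not called. Of 16 chemoattractant receptor genes tested, 8 were higher and 3 lower. Ccr7 rose from 73, 74.3 and 101 to 680.5, 862 and 709 (log2(fc) = 3.17 ± 0.1, adjp = 3.4e-17), and the monocyte receptor gene Ccr2 fell from 1613, 1387 and 1569 to 429, 353 and 479 (log2(fc) = -1.86 ± 0.12, adjp = 1.3e-11). Cx3cr1 (1.75), Ltb4r1 (1.19) and Ccrl2 (0.95) rose, and Cxcr3 fell (49.2 ± 6.74 to 28.3 ± 8.14, log2(fc) = -0.8). The call of Cxcr3 was lost without Ctrl replicate 2 or 3 and without LPS replicate 2 or 3, with log2(fc) between -0.804 with all libraries and -0.673 without LPS replicate 2 (adjp = 0.1 by limma).

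Secreted defence proteins and proteases followed. Of 20 acute-phase and antimicrobial genes tested, 11 were higher and 3 lower (median log2(fc) = 1.09). Haptoglobin, from Hp (2.04), thrombospondin-1, from Thbs1 (2.29), Slpi (1.12) and Orm1 (1.08) joined Lcn2, Saa3, Cp and Serpinb2. The lysozyme genes went the other way. Lyz2 had 1079023, 1099698 and 1100108 in Ctrl and 479760.4, 522494 and 475710.1 in LPS (log2(fc) = -1.15 ± 0.06, adjp = 6.6e-13), and its paralog Lyz1, with which it may share reads, fell as well (805 ± 38.8 to 409.6 ± 40.2, log2(fc) = -0.98). Marco (1366 ± 172 to 1152 ± 53.8, log2(fc) = -0.24), a scavenger receptor gene, was the third that fell. Of genes known from neutrophils, S100a8 (-0.04), S100a9 (0.67), Ltf (0.22), Camp (1.09) and Ngp (0.97) were not called, whereas Lcn2 rose. Of 16 matrix protease and inhibitor genes, 14 were higher and 1 lower (median log2(fc) = 0.84). Mmp25 (3.5), Mmp9 (2.81), Mmp8 (1.64), Mmp2 (1.54), Mmp14 (1.09) and the inhibitor gene Timp1 (2.85) rose, and Timp2 (-0.6) fell.

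Many enzymes that make inflammatory mediators rose. Of 29 tested, 18 were higher and 5 lower (median log2(fc) = 0.60, or 0.323 with a mean of at least 50). Ptgs2, encoding the inducible cyclooxygenase COX-2, had 99.3, 90.3 and 100.2 in Ctrl and 1499, 1294 and 1512 in LPS (log2(fc) = 3.88 ± 0.06, adjp = 2.2e-22). Acod1, whose enzyme makes itaconate, had 751, 723 and 826 and 5283, 5154 and 5536 (log2(fc) = 2.8 ± 0.05, adjp = 6.3e-22). Both genes were higher in every LPS library. Upp1 (2.14), Ch25h (1.67), Sod2 (0.88), Ptges (0.76), Gch1 (0.72), Kynu (0.61), Ass1 (0.52), Pla2g4a (0.6) and Ptgs1 (0.37) also rose. Arg1 (1.06), Arg2 (1.17), Ido1 (3.35), Ido2 (2.28) and Hdc (1.45) were called at few counts. The call of Arg1 was lost without Ctrl replicate 3 (log2(fc) = 0.787, adjp = 0.053 by limma) and without LPS replicate 1 (0.846, adjp = 0.054). Cyp27a1 (-1.23), Sat1 (-0.76), Tbxas1 (-0.43), Alox5ap (-0.28) and Asl (-0.16) fell. Alox5 (-0.13), Lta4h (-0.12), Ltc4s (0.02), Odc1 (-0.04) and the oxidase genes Cybb (0.02) and Ncf1 (-0.01) were not called.

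The interferon-stimulated genes were called about as often as any gene. Of 73 tested, 27 were higher and 9 lower and 37 were not called, so 49.3% were called against 47.4% of all tested genes. The median log2(fc) was 0.15, and 0.055 without Ctrl replicate 2. The members that rose most were Ifi205 (2.61), Slfn4 (2.36), Ms4a4c (2.25), Oasl1 (1.96), Slfn1 (1.87) and Ifi44 (1.46). The Ifi200 and Slfn genes have close paralogs, and their separate values are uncertain. Ifi27l2a (-1.73), Oas2 (-0.63), Ifi35 (-0.4), Parp12 (-0.36) and Slfn5 (-0.31) fell. Ifitm1 (1.11), Usp18 (0.99) and Isg15 (0.67) rose, whereas Ifit3 (0.08), Oas1a (-0.07) and Oas3 (0.05) were not called. The Ctrl libraries differed from each other more in these genes than elsewhere. The median SD within Ctrl was 0.217 on the log2 scale over this list and 0.089 over all tested genes, and the list's median stood at 0.051, -0.228 and 0.177 relative to the Ctrl mean in Ctrl replicates 1, 2 and 3. In the LPS libraries it stood at 0.133, 0.061 and 0.227, which overlaps with the Ctrl libraries.

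Interferon response elements were frequent in the promoters of this list whether or not the gene moved. The element GAAANNGAA, searched on both strands, was found in 11 of 26 windows (42.3%) of members that rose, 21 of 41 (51.2%) of members not called and 4 of 8 (50%) of members that fell, against 983 of 13102 windows (7.5%) of all tested genes. The windows of Isg15, which rose, and of Oas3, which was not called, are shown as members that differ in call but both hold overlapping elements, marked in capitals like the NF-κB match. In Isg15 the 3 elements overlap each other from 78 bases before the start, and a match to the NF-κB site follows, 41 bases before the start. In Oas3 there are 2 overlapping elements, from 75 bases before the start.
Isg15 (chr4:156200769-156201068, minus strand): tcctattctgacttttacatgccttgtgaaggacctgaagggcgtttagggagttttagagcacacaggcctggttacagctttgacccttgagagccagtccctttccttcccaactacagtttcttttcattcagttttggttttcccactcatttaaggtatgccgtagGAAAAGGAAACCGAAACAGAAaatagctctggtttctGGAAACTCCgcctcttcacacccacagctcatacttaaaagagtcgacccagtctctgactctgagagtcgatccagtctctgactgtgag
Oas3 (chr5:120777610-120777909, minus strand): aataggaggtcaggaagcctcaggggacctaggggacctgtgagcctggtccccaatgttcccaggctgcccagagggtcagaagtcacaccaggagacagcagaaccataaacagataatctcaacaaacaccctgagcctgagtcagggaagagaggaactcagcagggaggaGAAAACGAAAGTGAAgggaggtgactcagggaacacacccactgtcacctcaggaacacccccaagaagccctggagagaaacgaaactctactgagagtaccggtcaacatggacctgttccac
Counts of Isg15 were 564, 383 and 704 in Ctrl and 883, 751 and 933 in LPS, and those of Oas3 were 2140.4, 1655 and 2019 and 2002, 1765 and 2234.

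Transcription factors of the interferon system moved both ways, with 10 higher and 4 lower of 22 tested. Called either way were 63.6% of them, against 47.4% of all tested genes. Irf7, which amplifies type I interferon, had 526, 356 and 683 in Ctrl and 1501, 1509 and 1922 in LPS (log2(fc) = 1.7 ± 0.14, adjp = 2.3e-09). The groups did not overlap, although Ctrl replicate 2 was the lowest here too. Stat4 (2.49), Irf8 (0.87), Batf (0.55), Irf4 (0.43), Stat3 (0.23), Stat5a (0.27) and Stat5b (0.26) rose. The interferon receptor genes Ifnar2 (0.17) and Ifngr2 (0.18) rose, and Ifngr1 (-0.65) fell, as did Batf3 (-0.34), Stat2 (-0.18) and Irf2 (-0.15). Irf3 (-0.05), Irf5 (-0.04), Irf9 (0.01), Stat6 (-0.08), Batf2 (0.29) and Ifnar1 (0.04) were not called, and Irf1 had means of 938 in Ctrl and 936 in LPS. Guanylate binding proteins and related GTPases, which attack vacuoles of intracellular pathogens, were 11 higher and 2 lower of 16 tested (median log2(fc) = 0.61). Gbp4 (2.06), Gbp6 (1.65), Gbp5 (1.34) and Gbp2 (0.95) rose, Gbp9 (-0.26) and Gvin1 (-0.48) fell, and Irgm2 (-0.15) and Igtp (-0.17) were not called.

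**Figure D2:**
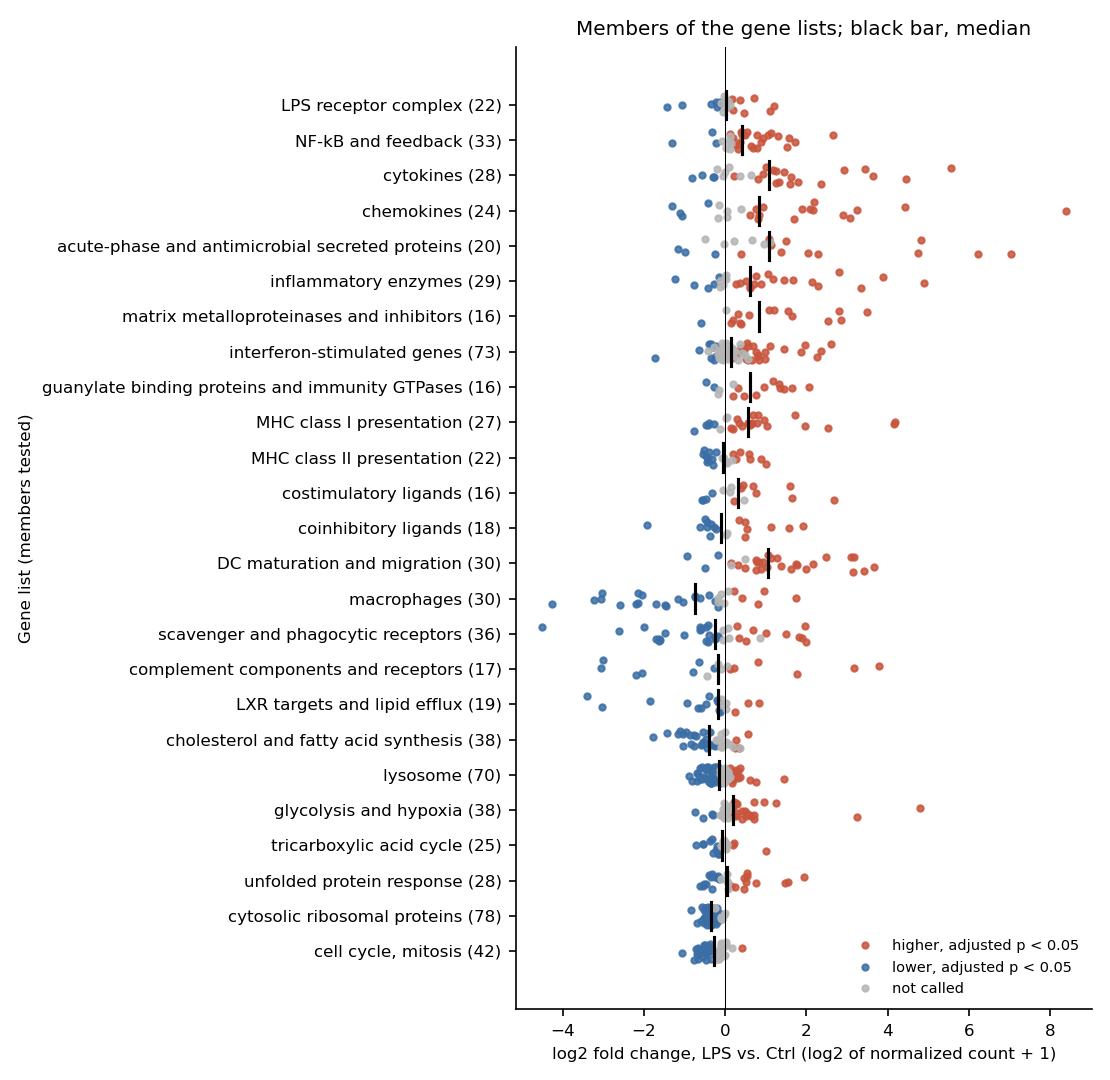
Each point is the log2 fold change, LPS vs. Ctrl, of 1 gene in 25 gene lists, with the number of members tested in brackets (red higher and blue lower at an adjusted p under 0.05, grey not called); the black bar is the list's median. Medians lay above 1 for cytokines, acute-phase genes and DC maturation, at -0.73 for macrophage genes and at -0.36 for cytosolic ribosomal proteins, whose points form a narrow band.

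Genes of antigen presentation were taken by class. Of 27 genes of the MHC class I pathway, 19 were higher and 5 lower (median log2(fc) = 0.57). The classical chain gene H2-K1 had 23109, 22651 and 23113 in Ctrl and 46164, 48287 and 47076 in LPS (log2(fc) = 1.04 ± 0.04, adjp = 6.1e-15). H2-D1 had 57355, 59967 and 59481 and 86964, 94900.4 and 88590.1 (log2(fc) = 0.61 ± 0.05, adjp = 5e-10). B2m, the light chain shared by all class I molecules, had 99713, 95215 and 99634 and 152481, 162624 and 152209 (log2(fc) = 0.67 ± 0.05, adjp = 5.8e-10). None of these overlapped between the groups. Nonclassical genes, which can share reads among themselves, spanned a wide range. Of the Q region, H2-Q5 (71 ± 7.07 to 412 ± 7.63, log2(fc) = 2.53) and H2-Q4 (670.4 ± 23.7 to 2648 ± 211, log2(fc) = 1.98) came behind H2-Q7 and H2-Q6, with H2-M2 (3110.3 ± 212 to 10289 ± 471, log2(fc) = 1.73) after them. H2-T10 (0.95), H2-Q1 (0.8), H2-M3 (0.78), H2-T22 (0.65) and H2-T23 (0.29) rose by less than H2-K1 on the log2 scale, differences that were not tested, and H2-T24 (-0.78) fell. H2-Q1, at few counts, lost its call without Ctrl replicate 2 (log2(fc) = 0.657, adjp = 0.09 by limma) and without LPS replicate 2 (0.56, adjp = 0.15). The peptide transporter genes Tap1 (1418 ± 52.7 to 2103 ± 86.8, log2(fc) = 0.57) and Tap2 (1654 ± 95.8 to 2216 ± 60.2, log2(fc) = 0.42) and the transactivator gene Nlrc5 (1202 ± 11.4 to 1379.8 ± 43, log2(fc) = 0.2) rose. Of the chaperones that load class I, Calr (-0.47), Canx (-0.4) and Pdia3 (-0.42) fell, Tapbp (0.04) was not called and Tapbpl (0.35) rose. Wdfy4 (-0.28), a gene of cross-presentation, fell. Immunoproteasome subunit genes Psmb8 (2348 ± 92.6 to 2800.2 ± 131, log2(fc) = 0.25) and Psmb9 (906 ± 34.6 to 1066 ± 69.9, log2(fc) = 0.23) rose, and Psmb10 (1772 ± 145 to 1565 ± 21.4, log2(fc) = -0.18) fell. Over 39 proteasome genes, 5 were higher and 12 lower, so 43.6% were called against 47.4% of all tested genes.

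Genes of the class II pathway moved both ways. Of 22 tested, 7 were higher and 10 lower, with a median log2(fc) of -0.05, or -0.026 without Ctrl replicate 3. The transactivator gene Ciita had 551, 539 and 566 in Ctrl and 441, 429.9 and 367 in LPS (log2(fc) = -0.42 ± 0.07, adjp = 4.6e-05), without overlap. H2-Eb1 (-0.52), H2-Aa (-0.23), the invariant chain gene Cd74 (-0.32) and the peptide exchange genes H2-DMa (-0.4) and H2-DMb1 (-0.31) fell, and H2-Ab1 (-0.03) was not called. H2-DMb2 (103 ± 18.9 to 115 ± 15.5, log2(fc) = 0.17) was not called either. H2-Oa (52 ± 5.76 to 106 ± 17.9, log2(fc) = 1.0) and H2-Ob (55.3 ± 4.36 to 84.7 ± 9.23, log2(fc) = 0.6), whose product restrains H2-DM, rose, as did H2-Eb2 (35.6 ± 4.23 to 66.4 ± 5.15, log2(fc) = 0.89). Among the proteases that prepare peptides, Ctsb (-0.54), Ctsd (-0.47) and Lgmn (-0.45) fell, Ctsl (0.27) and the thiol reductase gene Ifi30 (0.59) rose, and Ctss (0.02) was not called. The ubiquitin ligase gene March1 (6631 ± 375 to 7633 ± 982, log2(fc) = 0.2), whose product removes class II from the surface, rose by a small amount and March8 (3381 ± 34.7 to 2516 ± 49.3, log2(fc) = -0.43) fell. Of the factors that bind class II promoters, Rfxank rose (222 ± 9.82 to 287 ± 13.9, log2(fc) = 0.37), and Rfx5 (338 ± 14.2 to 324 ± 52.9, log2(fc) = -0.07) and Rfxap (195 ± 10.7 to 201 ± 24.6, log2(fc) = 0.04) were not called.

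Costimulatory ligand genes were 8 higher and 4 lower of 16 tested (median log2(fc) = 0.31, or 0.192 without Ctrl replicate 2). Cd40 rose most, from 34.5, 28.6 and 43 in Ctrl to 215, 265 and 214 in LPS (log2(fc) = 2.69 ± 0.11, adjp = 6.7e-15). Cd80 rose from 712, 764 and 716 to 1229, 1309 and 1204 (log2(fc) = 0.77 ± 0.06, adjp = 1e-10) and Cd86 from 701, 671 and 789.5 to 899, 1097 and 937 (log2(fc) = 0.44 ± 0.07, adjp = 1.5e-05). For these ligands of CD28 the libraries did not overlap. Slamf1 (9.16 ± 0.0404 to 31.3 ± 7.18, log2(fc) = 1.65), Tnfsf18, Cd1d1 (367 ± 33.7 to 589.9 ± 34.1, log2(fc) = 0.69), Icam1 (2413 ± 59.4 to 3181 ± 120.0, log2(fc) = 0.4) and Tnfsf4 rose as well. Tnfsf8, Icosl (-0.54), Cd48 (-0.46) and Cd44 (-0.33) fell, and Cd83 (0.13), Slamf7 (0.11), Tnfsf9 (0.47) and Tnfsf14 (-0.06) were not called. Coinhibitory genes were 7 higher and 9 lower of 18 tested (median log2(fc) = -0.11), and the median turned to 0.016 with a mean of at least 50. The ligands of PD-1 rose, with 6106, 5879 and 6088 in Ctrl and 13259, 12858 and 13305 in LPS for Cd274 (log2(fc) = 1.12 ± 0.04, adjp = 1.5e-16) and 66.9, 76.6 and 66.5 and 208, 199.6 and 226 for Pdcd1lg2 (log2(fc) = 1.58 ± 0.09, adjp = 1.9e-12). Btla (1.92), Pvr (0.55), Nectin2 (0.49), Cd200 (0.49) and Cd200r4 (0.35) rose. Lag3 (-1.93), Lilrb4a (-0.62), Havcr2 (-0.51), Sirpa (-0.45), Tnfrsf14 (-0.44), Pirb (-0.37), Lgals9 (-0.34), Cd276 (-0.27) and Lgals3 (-0.24) fell. Vsir (17034 ± 231 to 17240.1 ± 838, log2(fc) = 0.02) and Cd200r1 (6107 ± 172 to 6269.9 ± 229, log2(fc) = 0.04) were not called.

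**Figure D3:**
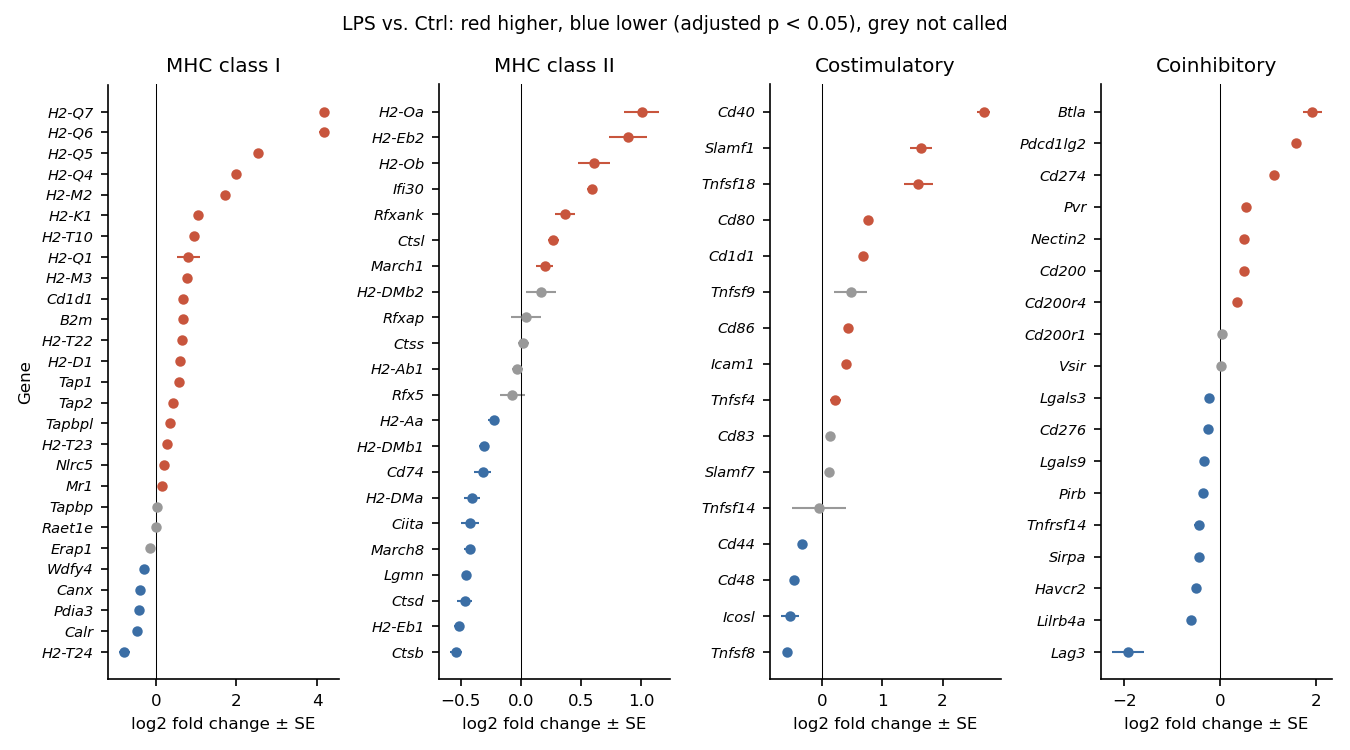
log2 fold change ± SE, LPS vs. Ctrl, of every tested gene of the MHC class I, MHC class II, costimulatory and coinhibitory lists, each panel with its own axis (red higher, blue lower, grey not called; limma over 12 libraries, adjusted p under 0.05). Class I genes reach 4.18 for H2-Q7, while class II genes stay between -0.54 for Ctsb and 1.00 for H2-Oa.

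Most genes that mark mature and migrating dendritic cells rose. Of 30 tested, 25 were higher and 3 lower, with a median log2(fc) of 1.04. Fscn1, which encodes the actin bundler fascin, had 53.7, 48 and 51.1 in Ctrl and 389.9, 524 and 425 in LPS (log2(fc) = 3.1 ± 0.09, adjp = 1.1e-17). Cacnb3 (3.42), the 4-1BB gene Tnfrsf9 (3.66), the adenosine receptor gene Adora2a (3.16), Zmynd15 (1.74), Nudt17 (1.99), Gadd45b (1.37), Mreg (1.27), Marcksl1 (1.12), Samsn1 (1.06) and Serpinb9 (1.03) rose beside Ccr7, Ccl22, Stat4 and Il4i1. Arl5c (0.82), Clu (0.89), Socs2 (0.75), Tmem123 (0.31), Poglut1 (0.14) and, at few counts, Bcl2l14 (1.78) rose too. Serpinb6b (-0.94), Anxa3 (-0.5) and Swap70 (-0.16) fell, and Tnfrsf4 (0.5) was not called. Markers of conventional dendritic cells as a class did not move one way, with 9 higher and 9 lower of 21 tested. Kit (3.22), Clec9a (1.02) and Flt3 (2.32) rose, and the lectin genes Cd209a (-4.5) and Clec10a (-1.61) fell. Cd209a had 49.7, 42.3 and 29.7 in Ctrl and 4.83, 0 and 0 in LPS, and DESeq2 on recovered reads did not call it (log2(fc) = -4.65, adjp = 0.18). The summed level of this list was 3340 to 3440 CPM in the Ctrl libraries and 3210 to 3240 in LPS.

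Genes of resident macrophages were among the deepest falls. Cd5l, which encodes the secreted macrophage protein AIM, had 1598, 1663 and 1884 in Ctrl and 77.2, 101 and 89.7 in LPS (log2(fc) = -4.25 ± 0.12, adjp = 1.2e-17). Apoe, the lipid carrier apolipoprotein E, had 4471, 4623 and 4918 and 559.8, 522 and 618 (log2(fc) = -3.04 ± 0.09, adjp = 7.5e-18). All LPS libraries lay below all Ctrl libraries in both. C1qa, a chain of complement C1q, had 805, 849 and 904 and 81.1, 128 and 98.5 (log2(fc) = -3.07 ± 0.17, adjp = 1.8e-12), and the other chains fell with it, C1qb (5199 ± 84.9 to 1144 ± 58.6, log2(fc) = -2.19) and C1qc (3231 ± 88.2 to 786 ± 40.1, log2(fc) = -2.04). The mannose receptor gene Mrc1 had 20032, 18279.9 and 20238 and 7256, 6677 and 7176 (log2(fc) = -1.47 ± 0.06, adjp = 1.9e-14). Over the macrophage list, 5 were higher and 20 lower of 30 tested, with a median log2(fc) of -0.73. Members that fell include Folr2 (-3.24), Slco2b1 (-2.15), Fcna (-2.15), Gas6 (-1.7), the iron exporter gene Slc40a1 (-1.46), Siglec1 (-1.05), Mertk (-0.62) and the transcription factor gene Maf (-0.73). Against them, Cx3cr1, Ms4a7 (0.96), Pf4, Adgre1 and C5ar1 (0.23) rose, and Csf1r, Cd68 (-0.02), Gpnmb (0.07), Spic (-0.18) and Fcgr1 (-0.17) were not called. The summed level of the list went from 64600 to 65000 CPM in Ctrl to 44600 to 48800 CPM in LPS. That fall was of Lyz2, at 39100 to 39800 CPM in Ctrl and 18600 to 20600 in LPS. Without it the sum of the other 32 genes, of which Gpnmb made up most, was 25100 to 25500 CPM in Ctrl and 26000 to 28300 in LPS. CPM divides by the library total and normalized counts by a size factor. A step this small can differ between these scales, so no direction is read from it.

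Among the other large falls were Abcg3 (-3.39), an ABC transporter gene, Dmpk (-3.35), the myotonic dystrophy protein kinase gene, Tceal7 (-3.1), Il1rl1 (-2.96), which encodes the IL-33 receptor ST2, Bex1 (-2.85), Cd300lg (-2.71), Gpx3 (-2.65), the extracellular glutathione peroxidase, Klk1b11 (-2.64), of the kallikrein family with its close paralogs, the lectin gene Mgl2 (-2.6), F13a1 (-2.59), coagulation factor XIII chain A, and Gm1673 (-2.46). Complement genes as a list were 6 higher and 7 lower of 17 tested. While the C1q chains fell, C3, the central component, rose from 2801, 2947 and 2851 in Ctrl to 9689.7, 9264 and 10386 in LPS (log2(fc) = 1.77 ± 0.05, adjp = 3.7e-18), with Cfb (18.2 ± 5.49 to 261 ± 47.8, log2(fc) = 3.79), C1s1 (4.5 ± 2.47 to 45.4 ± 7.26, log2(fc) = 3.16) and C1ra (176 ± 28.9 to 306 ± 21.1, log2(fc) = 0.8). The alternative pathway regulator gene Cfp fell (9998 ± 247 to 6440.2 ± 140.0, log2(fc) = -0.63).

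Receptors for uptake were lower more often than higher. Of 36 scavenger and phagocytic receptor genes tested, 10 were higher and 21 lower (median log2(fc) = -0.25). Clec4b1 (-2.0), Clec12a (-1.64), Stab2 (-1.62), Pros1 (-1.02) and Cd36 (-0.47) fell beside Mrc1, Mgl2, Cd209a and Gas6. Against the majority, the oxidised LDL receptor gene Olr1 had 1709.7, 1575 and 1649.5 in Ctrl and 6997, 5957 and 6537 in LPS (log2(fc) = 1.98 ± 0.05, adjp = 2e-18), and Clec4a1 (203 ± 11.8 to 585 ± 94.7, log2(fc) = 1.51), Trem1 (351 ± 19.9 to 711 ± 31.2, log2(fc) = 1.02), Vldlr (6.98 ± 4.67 to 27.1 ± 3.39, log2(fc) = 1.97) and Cxcl16 rose. Msr1 (27754 ± 1570.0 to 26975 ± 1400.0, log2(fc) = -0.04) and Lrp1 (17541 ± 812 to 16855 ± 1610.0, log2(fc) = -0.06) were not called. Among Fc receptor genes the inhibitory Fcgr2b rose (1.62), while the activating Fcgr4 (-1.26), the Fc receptor-like Fcrls (-2.02) and the neonatal receptor gene Fcgrt (-1.0) fell and Fcgr3 (0.04) was not called.

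Lipid genes were lower more often than higher in LPS. For cholesterol and fatty acid synthesis, 4 were higher and 22 lower of 38 tested (median log2(fc) = -0.39). Idi1, an isomerase of the isoprenoid pathway, had 558, 451 and 504 in Ctrl and 196, 152 and 214 in LPS (log2(fc) = -1.44 ± 0.11, adjp = 5.8e-10), without overlap. Hsd17b7 (-1.11), Cyp51 (-1.04), Hmgcs1 (-0.96), Msmo1 (-0.85), the sterol carrier gene Stard4 (-1.15), Fdps (-1.03), whose pseudogenes can take its reads, and the regulator gene Srebf2 (-0.76) fell. Against them, Insig2 (0.35), Mvd (0.27), Scd1 (0.56) and Scd2 (0.24) rose. Among LXR targets and lipid efflux genes, 3 were higher and 12 lower of 19 tested. The receptor gene Nr1h3 (1218 ± 117 to 629 ± 10.2, log2(fc) = -0.95), which encodes LXRα, and Pltp (1987 ± 155 to 553 ± 14.4, log2(fc) = -1.84) fell beside Apoe and Abcg3, and the efflux pump gene Abca1 (3160.3 ± 40.3 to 5622 ± 359, log2(fc) = 0.83) rose. Whether Abcg3, counted in this list as an ABC transporter gene, is an LXR target or moves lipids was not tested. In fatty acid handling, 5 were higher and 17 lower of 28 tested. Pparg itself fell from 1144, 1176 and 1112 to 435, 423 and 448 (log2(fc) = -1.39 ± 0.09, adjp = 8.4e-12), with its known targets Fabp4 (8243 ± 304 to 2982 ± 223, log2(fc) = -1.47) and Cd36. The subunits of the mitochondrial trifunctional protein, Hadha (3298 ± 138 to 2190.3 ± 88.8, log2(fc) = -0.59) and Hadhb (2936 ± 113 to 1698 ± 112, log2(fc) = -0.79), fell as well, and Acsl1 rose (1525 ± 63.5 to 2691 ± 5.2, log2(fc) = 0.82).

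Lysosomal genes were lower more often than higher, with 14 higher and 39 lower of 70 tested and a median log2(fc) of -0.16. Atp6v0a1 (-0.9), a subunit of the proton pump, Sgsh (-0.82), Ids (-0.69), Gusb (-0.62) and Lamp1 (-0.56) are examples. Acp5 (3467 ± 145 to 9539 ± 129, log2(fc) = 1.46) and Ctsk (4014 ± 114 to 6816 ± 643, log2(fc) = 0.76) rose against the majority. Cytosolic ribosomal protein genes were lower almost throughout. Of 78 tested, 0 were called higher and 71 lower, with a median log2(fc) of -0.36. Rpl10a (-0.85), Rpl10 (-0.68) and Rpl3 (-0.6) fell most, and Rpl4 (-0.07) was among the 7 not called. The median of this list stood at -0.40, -0.236 and -0.438 relative to the Ctrl mean in LPS replicates 1, 2 and 3, all below the Ctrl libraries at -0.055, 0.031 and 0.03.

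Cell cycle genes were lower in part. For mitosis, 1 were higher and 21 lower of 42 tested (median log2(fc) = -0.26), and for DNA replication 3 higher and 18 lower of 46. Called either way were 52.4% and 45.7% of these lists, against 47.4% of all tested genes. Ccnb2 (-1.06), Birc5 (-0.78), Aurkb (-0.72) and Ccna2 (-0.68) fell, and Mki67 (-0.07) and Top2a (-0.1) were not called. Incenp rose (1948 ± 74.8 to 2596 ± 111, log2(fc) = 0.41). The cyclin D1 gene Ccnd1 had 11149, 9988 and 11681 in Ctrl and 5240.1, 5100.2 and 4932 in LPS (log2(fc) = -1.1 ± 0.06, adjp = 6.8e-13), while Ccnd2 rose (1798 ± 74 to 2591 ± 169, log2(fc) = 0.53) and Myc (369.8 ± 15.8 to 346 ± 40.9, log2(fc) = -0.1) was not called. Of 25 genes of cell death and survival, 13 were higher and 4 lower. Bcl2a1a (1.07) and Bcl2a1d (0.89), near-identical copies whose reads may be shared, Cflar (0.78), Ripk2 (0.85) and Fas (0.82) rose, and the pro-death gene Bcl2l11 (-0.48) fell.

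Genes of energy metabolism moved by pathway. Of 38 genes of glycolysis and the hypoxia response, 22 were higher and 4 lower (median log2(fc) = 0.19). The glucose transporter gene Slc2a1 had 2658, 2767 and 2629 in Ctrl and 4466, 4267 and 4432 in LPS (log2(fc) = 0.71 ± 0.04, adjp = 1.6e-12). Pfkl (0.71), Slc16a3 (0.7), Eno1 (0.5), Hk2 (0.42), Hif1a (0.53), Egln3 (3.24) and Car4 (4.81) rose. Ldha (-0.04) and Pkm (0.1) were not called, and Pdk1 (-0.73) and Hk3 (-0.32) fell. In the tricarboxylic acid cycle, 3 were higher and 11 lower of 25 tested, so 56% were called against 47.4% of all tested genes. Idh2 (-0.73), Fh1 (-0.54) and Idh1 (-0.38) were lower and pyruvate carboxylase, Pcx (1.0), was higher. Nuclear genes of oxidative phosphorylation were 7 higher and 24 lower of 77, so 40.3% were called, less than the 47.4% of all tested genes.

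Genes of stress pathways moved both ways. Of 28 genes of the unfolded protein response, 11 were higher and 12 lower. The member that rose most was Ddit3, which encodes CHOP, with 878, 934 and 951 in Ctrl and 3525, 3412 and 3662 in LPS (log2(fc) = 1.94 ± 0.05, adjp = 1.2e-18), followed by Chac1 (1.54), Trib3 (1.48) and Asns (0.77), and Atf4 (0.52) rose too. Among chaperone genes of the endoplasmic reticulum, Sdf2l1 (-0.61), Pdia6 (-0.55), Hsp90b1 (-0.51) and Hspa5 (-0.32) fell, Hyou1 (0.14) rose and Pdia4 (0.07) was not called. Among NRF2 targets and antioxidant genes, 14 were higher and 11 lower of 30 tested. Slc7a11, the cystine importer, had 5340.0, 5548 and 5244 and 13673, 11386 and 14614 (log2(fc) = 1.29 ± 0.06, adjp = 1.7e-13), and Hmox1 (0.99), Nqo1 (0.96), Mt2 (1.08) and Gsta3 (1.09) rose. Gpx1 (50900.1 ± 1820.0 to 34769 ± 1060.0, log2(fc) = -0.55), Taldo1 (13812 ± 397 to 9879 ± 394, log2(fc) = -0.48) and Sod1 (4059 ± 106 to 3154 ± 175, log2(fc) = -0.36) fell. Iron genes were 7 higher and 7 lower of 19, with the exporter gene Slc40a1 lower and Hamp (2.05 ± 3.54 to 13.4 ± 0.393, log2(fc) = 2.9), which encodes hepcidin, higher at few counts.

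Markers of other cells were summed per library in CPM to set beside these results. The neutrophil list went from 643 to 688 CPM in Ctrl to 2070 to 2190 in LPS, almost wholly through Mmp8. Without Mmp8 it was 37.6 to 48.8 and 44.3 to 50.6, a low level. Of its 9 members tested, Mmp8 was called higher and 8 were not called. The T and NK cell list went from 738 to 759 CPM to 921 to 937, mostly through Il7r (20677 ± 324 to 23637 ± 354, log2(fc) = 0.19), with Cd8b1, Gzma, Ncr1, Trbc1 and Trbc2 at 0 reads in all 6 libraries. The B cell list went from 50.9 to 61.6 CPM to 81 to 85.3. The mast cell and basophil list went from 5.42 to 6.55 CPM to 15.6 to 18.7, largely through Kit, with 6 of its 12 genes at 0, Fcer1a, Mcpt4, Mcpt8, Tpsab1, Tpsb2 and Gata1. The plasmacytoid list went from 413 to 460 CPM to 337 to 356 through Lair1 (7306 ± 288 to 3350.1 ± 110.0, log2(fc) = -1.12). Without Lair1 it was 157 to 187 CPM in Ctrl and 208 to 228 in LPS, and of the 7 members tested 4 were higher and 1 lower. The eosinophil list went from 91.1 to 95.5 CPM to 60.4 to 65.3. Erythroid genes summed to at most 0.274 CPM and fibroblast genes between 10.4 and 14.7 CPM. The part of these cells in the changes above was not tested beyond these values.

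The effect of LPS was then compared with its effect on cells that had received Aβ oligomers. The group means of Aβ+LPS vs. Aβ share no library with those of LPS vs. Ctrl, but both comparisons use the same spread per gene, estimated from all 12 libraries. In it 19 genes (0.138% of the 13721 tested) were called by limma, 3 higher and 16 lower, and 884 had an unadjusted p under 0.05. Of those 19 genes, 17 (89.5%) were also called in LPS vs. Ctrl, against 47.4% of all tested genes. A gene with a small shared spread is called more readily in both, so these shares are not independent. The 17 genes are 0.261% of the 6501 calls of LPS vs. Ctrl, and 12 had the same direction. The 848 genes higher by more than 1 on the log2 scale in LPS had a median log2(fc) of 1.64 there and of 0.062 in Aβ+LPS vs. Aβ, and the 303 lower genes had medians of -1.38 and -0.031. Counts of calls in that comparison depend on the test, with 30 by edgeR and 47 by DESeq2 on recovered reads, and fell to 6 without Aβ replicate 2 or Aβ+LPS replicate 2. The difference between the LPS effects, tested as the interaction in the fit with all 12 libraries, was called for 4523 genes (33%).

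Members were at other levels in the Aβ groups. Ccl5 had 80982 ± 3420.0 in Aβ and 95963 ± 4130.0 in Aβ+LPS (log2(fc) = 0.24 ± 0.05, adjp = 0.053), against a mean of 37159 with LPS alone. Il6 had 10812 ± 368 in Aβ and 12705 ± 1050.0 in Aβ+LPS (log2(fc) = 0.23 ± 0.1, adjp = 0.71), against means of 3.86 in Ctrl and 224 in LPS. Ptgs2 had 25312 ± 1050.0 in Aβ and 28379 ± 1630.0 in Aβ+LPS (log2(fc) = 0.16 ± 0.06, adjp = 0.54), and H2-Q7 had 4246 ± 81 in Aβ and 4294 ± 161 in Aβ+LPS (log2(fc) = 0.02 ± 0.06, adjp = 0.99). Apoe had 76.8 ± 5.96 in Aβ and 108 ± 5.8 in Aβ+LPS, a small rise by LPS on a low level (log2(fc) = 0.48 ± 0.09, adjp = 0.016), where LPS alone lowered it. Ccl22 kept its direction, with 52774 ± 1030.0 in Aβ and 61551 ± 2440.0 in Aβ+LPS (log2(fc) = 0.22 ± 0.04, adjp = 0.03), and so did Ccl6, with 29094 ± 665 in Aβ and 23358 ± 628 in Aβ+LPS (log2(fc) = -0.32 ± 0.05, adjp = 0.0029), and Mrc1, with 762 ± 89.2 in Aβ and 561 ± 3.06 in Aβ+LPS (log2(fc) = -0.43 ± 0.06, adjp = 0.0029). Irf7 changed direction, with 2429.9 ± 102 in Aβ and 1472 ± 183 in Aβ+LPS (log2(fc) = -0.73 ± 0.14, adjp = 0.04). The cell cycle genes Ccnd1 and Nuf2 were lower with LPS both without Aβ and with it (log2(fc) = -0.37 ± 0.06, adjp = 0.0061 for Ccnd1 and log2(fc) = -0.71 ± 0.14, adjp = 0.03 for Nuf2, with Aβ). Oas3, not called without Aβ, fell with it, from means of 1682 to 1008 (log2(fc) = -0.73 ± 0.09, adjp = 0.00036).

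**Figure D4:**
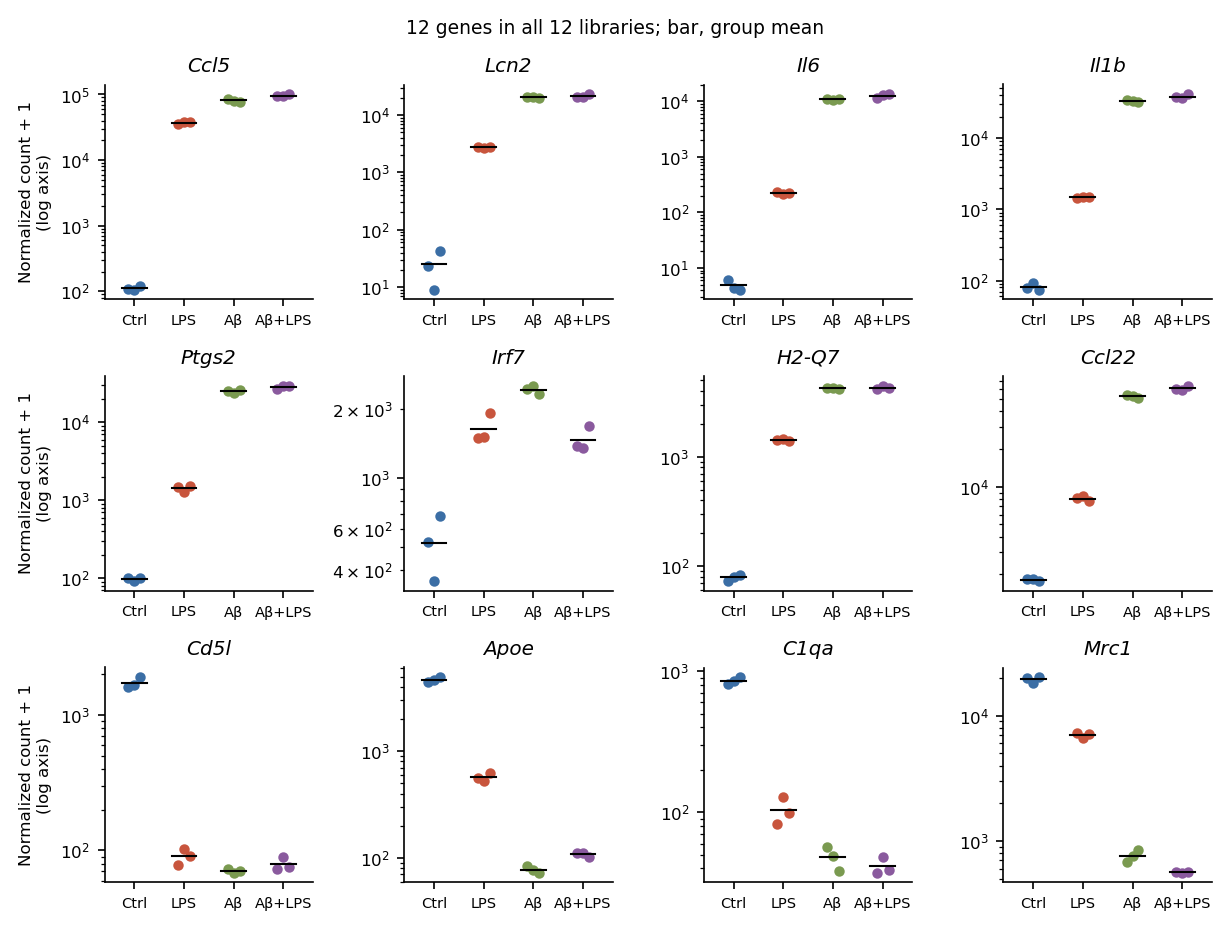
Normalized counts plus 1 on log axes for 12 genes in all 12 libraries (Ctrl blue, LPS red, Aβ green, Aβ+LPS violet; n = 3 each, bar at the group mean, each panel with its own axis). Ccl5, Lcn2, Il6, Il1b, Ptgs2, H2-Q7 and Ccl22 are higher in both Aβ groups than with LPS alone, and Apoe, C1qa and Mrc1 are lower, while the step from Aβ to Aβ+LPS is small beside the step from Ctrl to LPS, except in Irf7, where it is -0.73 on the log2 scale.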

How the data were processed

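Per the labels and the study's methods, RNA was sequenced as stranded mRNA libraries. Per the submitters' processing notes, FastQC 0.11.5, HISAT2 2.1.0, featureCounts 1.6.0, DESeq2, R 3.4.4 and GRCm38 were used; the strand setting of counting is not given in the sources used here. The authors deposited a normalized signal per gene and library, gene counts divided by a size factor, from which whole reads were recovered for 100% of values (within 0.05 of a whole number). The deposited columns of fold changes, standard errors, statistics, p-values, adjusted p-values and overall means, and 11 columns of gene ontology terms, were not used.

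Values were transformed as log2(value + 1) and fitted with limma 3.58.1 (trend) to all 12 libraries, with group as the only term and 8 residual degrees of freedom, for genes whose mean reached 10 in Ctrl or LPS. P-values were adjusted by Benjamini-Hochberg over all tested genes, with 0.05 as the threshold. The script was tested on simulated data. Named were the 15 highest and 15 lowest changes with a mean reaching 100 in the higher group and no overlap of libraries; in each list up to 6 called members each way, members beyond 1 on the log2 scale and members against the majority; and all genes of the receptor, NF-κB, interferon factor, cytokine, chemokine, enzyme, class II, costimulatory, coinhibitory and maturation lists. Some genes that this rule names are not reported here. Members and lists were chosen with earlier results of these data known. Alternatives were other pseudocounts, filters and scalings, a replicate block, leaving out each library and, chosen after seeing the data, TMM scaling and edgeR 4.0.16 and DESeq2 1.42.0 on recovered reads.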

Additional observations from a re-analysis of the deposited data

Results flagged for a closer look

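The effect of LPS differed with and without Aβ in 4523 genes by the interaction term of limma at an adjusted p under 0.05. The interaction is the log2 change of Aβ+LPS vs. Aβ minus that of LPS vs. Ctrl, and it was called for each of the 29 genes reported among the largest changes by LPS alone. Among the genes that rose it was -8.14 for Ccl5, -6.98 for Lcn2, -6.17 for Saa3, -5.33 for Il6, -5.26 for Vnn3, -4.85 for Susd2, -4.57 for Nos2 and -4.73 for Serpinb2. It was -4.69 for Cp, -4.39 for Il12b, -4.32 for Cxcl3, -4.33 for Pappa2, -4.01 for Sema7a, -4.16 for H2-Q7 and -3.97 for Il1b. Among the genes that fell it was 4.4 for Cd5l, 2.79 for Abcg3, 3.25 for Dmpk, 3.58 for Tceal7, 2.87 for C1qa, 3.53 for Apoe and 3.19 for Il1rl1. It was 2.58 for Bex1, 2.26 for Cd300lg, 2.66 for Gpx3, 2.68 for Klk1b11, 2.31 for Mgl2, 2.73 for F13a1 and 1.95 for Gm1673. These genes were chosen for their change by LPS alone, which enters the interaction, so the values are a description.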

How the results depend on the processing

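Counts of calls in LPS vs. Ctrl stayed within 1.5 times under each alternative run, apart from genes higher by more than 2-fold, which were 455 with a mean of at least 50. Leaving out 1 library gave 2954 to 3188 higher and 2866 to 3062 lower genes, and median scaling gave 3036 and 3614. A fit of only the 6 Ctrl and LPS libraries gave 3048 higher and 3192 lower genes. The replicate block gave 6596 calls, 6437 of them shared with the 6501 without it and none of opposite sign. Deviations of libraries with the same number correlated at 0.0359, 0.00371 and -0.00551, and those with other numbers at -0.0633 to 0.0562. No pairing by number was seen, but these values cannot tell whether libraries with the same number share a culture or animal. Aβ+LPS vs. Aβ gave 12 calls with no filter, 6 to 17 without 1 library, 30 with edgeR and 47 with DESeq2.

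List medians moved as follows. The LPS receptor complex was -0.001 with median scaling, acute-phase genes 0.955 with pseudocount 5 and complement -0.262 with DESeq2. With a mean of at least 50 medians were 1.17 for cytokines, 0.441 for chemokine receptors, 0.323 for inflammatory enzymes, 0.496 for class I, 0.221 for costimulatory, 0.016 for coinhibitory, -0.281 for complement, -0.327 for scavenger, -0.051 for iron and 0.585 for protease genes. Without 1 library medians ranged from 0.088 to 0.31 for other sensors, 0.753 to 0.881 for chemokines, 0.055 to 0.211 for interferon-stimulated genes, 0.838 to 1.237 for acute-phase, 0.192 to 0.333 for costimulatory, -0.32 to -0.117 for complement, -0.13 to -0.03 for Fc receptor, -0.332 to -0.001 for mitochondrially encoded, -0.027 to 0.091 for iron, -0.334 to -0.217 for mitosis and 0.783 to 0.869 for protease genes.

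Of the 478 genes named, 26 lost their call under some alternative and 22 gained one. A change of sign with a call in the main or the alternative fit was seen for 0 genes. Changes of sign of genes called in neither were not counted. Without 1 library the calls of Arg1, Asl, Ccl7, Cxcl10, Cxcr3, Cyld, Gbp9, Gvin1, H2-Q1, Irak1, Itgax, Ly96, March1, Marco, Nfkb1, Nfkbid, Poglut1, Psmb10, Slfn5, Stat2, Stat5a, Swap70, Tab2, Tnfsf13 and Tnfsf4 were lost, and the call of Cd209a was lost with DESeq2. Low counts limit Il12a, Vegfc, Cxcl9, Ccl8 and Hamp, whose Ctrl libraries lie near 0, so the size of their rise depends on the pseudocount.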
